A study of Mus musculus with 6 samples.

Results

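The 39 genes described here encode the machinery that brings proteins into mitochondria, folds and removes them there, fuses and divides the organelle, and copies and transcribes mitochondrial DNA (mtDNA). They were chosen by name: 8 genes of the TOM translocase and its partners, 4 small TIM chaperones, 6 subunits of the TIM22 and TIM23 translocases, 3 fusion genes, 3 fission genes, 6 genes of mtDNA replication and transcription, 2 nuclear regulators, 3 chaperones, 2 proteases and 2 prohibitins. All 39 were listed among the 23276 gene symbols measured. The RNA came from whole kidneys of mice on postnatal day 22. The SKO group was Ksp/Cre;Pkd1 F/RC (n = 3 kidneys). The DKO group (n = 3 kidneys) had these same alleles and also both copies of the miR-17∼92 cluster floxed (miR-17∼92 F/F). All 6 animals therefore carried Cre recombinase driven by the Ksp-cadherin promoter, a floxed (F) Pkd1 allele that this recombinase inactivates, and the RC allele, a hypomorphic Pkd1 point mutation. In DKO kidneys the cluster was a further target of the recombinase. Ksp-cadherin is made in tubule epithelium, so other kidney cells keep the floxed genes. No kidney with intact Pkd1 was analysed here.

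Most mitochondrial proteins are encoded in the nucleus and made in the cytosol. They enter through the TOM complex of the outer membrane, and the TIM complexes then sort them into or across the inner membrane. The mitochondrial genome itself encodes a small set of respiratory chain subunits and is copied and transcribed by proteins that must all be imported. Kidney tubules, above all the proximal tubule, are rich in mitochondria because salt and solute transport costs much ATP.

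The deposited measurement used here is 1 value per transcript, the authors' mean log2 CPM (read counts scaled to the size of the library) over the 6 kidneys of both groups. No value for a single kidney was in the table, so no mean below has an SD and the spread between kidneys is unknown. The order of genes with neighbouring levels is therefore not resolved. The number of reads behind each value is likewise unknown. SKO and DKO levels were not compared here, and the authors' own comparison of them was not used. Where a gene had several transcripts, the one with the highest mean stands for it, and CPM below is 2 raised to the deposited log2 value. In whole kidney, fewer cells of a type and less RNA per cell cannot be told apart.

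The tissue label was checked against marker genes. All 8 tubule markers were high, from 77.7 CPM for Aqp2 to 1030 CPM for Slc34a1, and Cdh16, which encodes Ksp-cadherin, stood at 480 CPM. Podocyte, endothelial and macrophage markers were also present, from 4.49 CPM for Emr1 to 52.7 CPM for Pecam1. Of 6 markers of other organs, 5 were at or under 0.198 CPM and Apoa2 was at 1.34 CPM. Mir17hg, the host transcript of the miR-17∼92 cluster, had a mean of 4.21 CPM over both groups, which cannot check the deletion.

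Of the cluster that differs between the groups, 6 mature miRNAs in 4 seed families were used here, all on the plus strand of chromosome 14. Any other mature product of the cluster was not searched. A miRNA finds its targets mainly through its seed, bases 2 to 8, so the seeds (in capitals) decide which of the 39 transcripts carry a match. The sequences are from RefSeq on GRCm38.p6.
miR-17-5p: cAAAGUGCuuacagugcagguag
miR-20a-5p: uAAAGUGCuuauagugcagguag
miR-18a-5p: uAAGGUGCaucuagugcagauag
miR-19a-3p: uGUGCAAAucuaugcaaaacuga
miR-19b-3p: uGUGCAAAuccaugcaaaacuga
miR-92a-3p: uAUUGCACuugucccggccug
miR-17-5p and miR-20a-5p share 1 seed, miR-19a-3p and miR-19b-3p share another, and miR-18a-5p and miR-92a-3p each have their own.

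Of the 39 genes, 38 have a 3′ UTR in the GENCODE M21 model used, the exception being the Dnm1l model. Some other models have short 3′ UTRs, such as 53 bases for Polg2, 87 for Lonp1, 104 for Polrmt and 133 for Opa1. A match outside the model would not be found. Matches to all 7 seed bases (7mer-m8 sites) were searched on the transcript strand, as GCACTTT for miR-17, GCACCTT for miR-18, TTTGCAC for miR-19 and GTGCAAT for miR-92. A match to any of the 4 families was in 10 of the 38 genes (26.3%), beside 26.4% of the 18909 genes with a 3′ UTR. The miR-17 match was in 6 of the 38 genes (15.8%), beside 11% of all genes. These 6 were Tomm7, Tomm20, Timm17a, Mfn2, Tfb2m and Polg. The miR-19 match was in 4 (10.5%), beside 1898 of the 18909 genes, namely Tomm7, Tomm20, Tfam and Tfb2m. The miR-18 match was in Tomm20 and Mfn1 (5.26%, beside 7.22%), and the miR-92 match was in Mff and Nrf1 (5.26%, beside 5.99%). No test was run on these shares.

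The miR-17 family matches are shown because this family gave 8 of the 16 matches found. Each is a 27-base stretch of the mRNA strand on mm10, with the seed match in capitals.
Tomm7, chr5:23839051-23839057, minus strand: gctcaatacaGCACTTTctcccagtag
Tomm20, chr8:126932399-126932405, minus strand: cagtgactcaGCACTTTtgaaatgttc
Tomm20, chr8:126930897-126930903, minus strand: agagtttccaGCACTTTctgaaatgac
Timm17a, chr1:135298424-135298430, minus strand: gggcatgcctGCACTTTcaacatctgt
Mfn2, chr4:147874924-147874930, minus strand: ctcagctttaGCACTTTttcccacttg
Mfn2, chr4:147873761-147873767, minus strand: ttagcagagaGCACTTTagttttttgc
Tfb2m, chr1:179528390-179528396, minus strand: ctttaaatatGCACTTTtcaccattgc
Polg, chr7:79448270-79448276, minus strand: ccttttctgaGCACTTTggggcgtcac
The coordinates are those of the 7 capital letters, and every site lies in the 3′ UTR of the gene named. The second Mfn2 site is the single miR-17 match followed by A, which makes it an 8mer and leaves 1 gene in 38 (2.63%), beside 3.29% of all genes. Tfam and Tfb2m hold the 2 miR-19 8mers, and these are shown for that reason.
Tfam, chr10:71225523-71225529, minus strand: aaaccattctTTTGCACagttaggaat
Tfb2m, chr1:179528794-179528800, minus strand: acaggattctTTTGCACacgtttattg
Tomm20 carried the most families, with 2 miR-17 matches, 1 miR-18 match and 1 miR-19 match along a 3′ UTR of 4348 bases.

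UTR length went with the matches. The 10 genes with a match had a median 3′ UTR of 1944 bases and the 28 without had a median of 391 bases. The median over the 38 genes was 564 bases, shorter than the 787 bases of all genes, and ranged from 53 bases for Polg2 to 6705 bases for Timm17a. Per kilobase of 3′ UTR, miR-17 matches numbered 0.170 in these genes and 0.0995 in all genes, while matches of the 4 families together numbered 0.341 and 0.30. The miR-18, miR-19 and miR-92 densities of the 39 genes were all below those of all genes. By mean level, the 10 genes with a match had a median of 27.7 CPM and the others a median of 20.7 CPM. Per kilobase of transcript the order was the opposite, at 7.71 and 13.2 CPM/kb, the genes with a match having the longer 3′ UTRs. A match is a stretch of letters and not a measured site of binding.

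**Figure D1:**
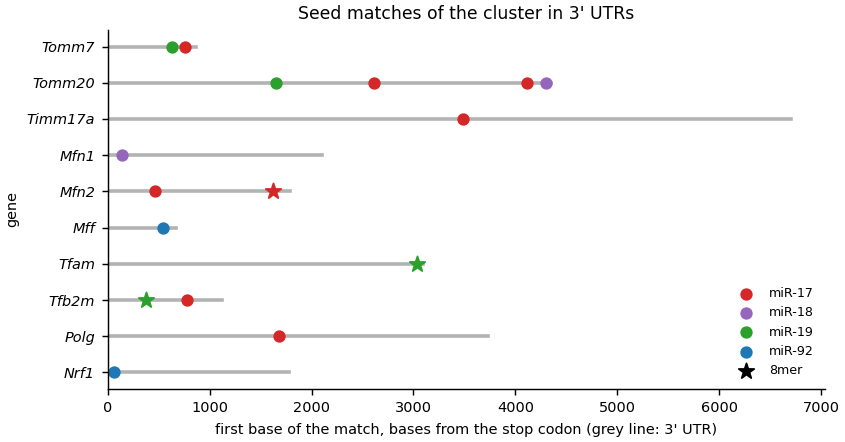
Position of each seed match along the 3′ UTR of the 10 genes that carry one. The x axis is the distance of the first base of the match from the stop codon in bases, each grey line is the length of the 3′ UTR, colours are the 4 seed families and stars are 8mers. The Tfam 8mer lies 3030 bases into a 3′ UTR of 3095 bases, and the Nrf1 match lies 64 bases from the stop codon.

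The RNA levels of the 39 genes lay mostly above that of the median gene. Their median was 4.44 on the log2 scale, or 21.7 CPM, against a median of 1.24, or 2.36 CPM, over all 23276 genes. The median gene of the 39 stood at percentile 81.7 of all genes, and 38 of the 39 were above the median of all genes, Polg2 being the exception. All 39 had at least 1 CPM, compared with 55.9% of all genes. At least 10 CPM was reached by 29 of them, compared with 32.2% of all genes, and at least 100 CPM by Hspa9 and Hspd1, compared with 2.56% of all genes. Many listed genes had less than 1 CPM in kidney. Among the 13001 genes with at least 1 CPM, whose median log2 CPM was 3.65, 29 of the 39 lay above the median.

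**Figure D2:**
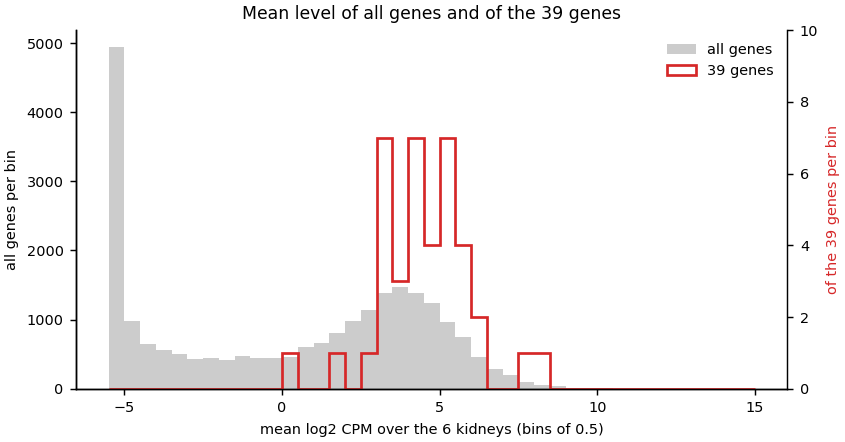
Number of genes in each bin of 0.5 of the mean log2 CPM over the 6 kidneys, for all 23276 genes (grey, left axis) and for the 39 genes (red, right axis). The 39 genes sit between 0.49 for Polg2 and 8.31 for Hspa9, and none falls in the tall bin of genes at the floor of the scale.

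Chaperone genes gave the largest part of this RNA. The 39 means summed to 1560 CPM, of which Hspa9 and Hspd1 gave 557 CPM, or 35.7%. From Polg2 to Hspa9 the levels spanned 225-fold in CPM. Since a long mRNA yields more fragments than a short one, levels of different genes are compared below as CPM per kilobase of the transcript model (CPM/kb). This scale uses the highest RefSeq mRNA, because assembled transcripts have no model. The length is that of the GENCODE model linked to this mRNA, which can differ from the RefSeq transcript that was counted. How far the lengths differ was not measured, so orders and ratios per length are approximate. In 7 genes the highest transcript was an assembled one, so their CPM and CPM/kb come from different transcripts, which differed by at most 0.10 on the log2 scale (Tomm70a). On that scale the median of the 39 genes was 12.1 CPM/kb, against 1.4 CPM/kb over the 20212 genes with a model, and the median percentile was 88.5. The models of the 39 genes were short, with a median of 1894 bases compared with 2516 bases. The span narrowed to 111-fold, with the same 2 genes at its ends.

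In the TOM complex, the small subunits had higher means per length than the receptors and the channel. Tomm40, the channel through which precursors pass (chromosome 7, 19701329 to 19715425), was at 15.1 CPM and 9.18 CPM/kb. The receptors Tomm20, Tomm22 and Tomm70a, which bind precursors at the surface, were at 59.4, 21 and 48.0 CPM. Per length these became 12.1, 13.4 and 7.53 CPM/kb, so the excess of Tomm20 over Tomm22 in CPM was not seen per length. The small subunits Tomm5, Tomm6 and Tomm7, which stabilise the complex, had 28.6, 22.7 and 27.6 CPM/kb, all above the 4 larger subunits. Their proteins have 61, 74 and 55 residues. Tomm34, a cytosolic co-chaperone of import, was the lowest of the group at 3.85 CPM/kb. The Tomm6 level carries a limit, since 87.6% of its exon bases also belong to Gm21981 on the same strand and 29.2% to the antisense gene Tomm6os. In Tomm40, 15.7% of the exon bases overlap the antisense gene Gm20512.

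The small TIM proteins carry hydrophobic precursors across the intermembrane space as mixed rings, Timm9 with Timm10 and Timm13 with a member of the Timm8 family. Timm8b was at 25.7 CPM and, with the shortest model of the 39 at 518 bases, at 49.7 CPM/kb. Timm13 was at 20.4 CPM and 16.6 CPM/kb, which puts Timm8b 2.99-fold above it per length. Timm10 and Timm9 were at 9.01 and 8.05 CPM, or 13.1 and 8.07 CPM/kb, a ratio of 1.62. In Timm8b, 15.6% of the exon bases overlap Nkapd1 on the opposite strand.

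The TIM22 and TIM23 translocases spanned the widest range of the import groups per length, 13.6-fold from lowest to highest. Timm23, the channel of the presequence pathway (chromosome 14, 32180162 to 32201898, minus strand), was at 42.7 CPM and 36.4 CPM/kb. Its channel partners Timm17a and Timm17b were at 25.7 and 6.38 CPM, a ratio of 4.06. Per length these paralogues were at 3.54 and 2.68 CPM/kb, a ratio of 1.32, because the Timm17a model is 7280 bases long. Timm44, which tethers the import motor, was at 12.1 CPM/kb. Timm50, the receptor of the complex, was at 5.52 CPM/kb, and Timm22, the channel that inserts carrier proteins into the inner membrane, was at 2.96 CPM/kb. The group median was 4.53 CPM/kb, compared with 12.7 CPM/kb for the TOM genes.

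The Timm23 value is the least secure of the 39. Only 9.17% of the 51-base words of its model, the length of the reads, were found in no other gene. It shared 1020 of 1123 words with Gm10273 and 578 each with the processed pseudogenes Gm10171 and Gm10233. Divided by its unique positions alone, the Timm23 level would be 414 CPM/kb. The authors kept alignments with a mapping quality of at least 10, and TopHat2 gives reads that fit several places a lower quality than that. A filter of this kind removes reads of shared positions before counting, which lowers a level per whole model. How many Timm23 reads it removed here was not measured, and the same limit holds for the other genes with shared words.

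The fusion and fission genes had means close together in CPM. Mfn1 and Mfn2, GTPases that join outer membranes, were at 37.8 and 45.1 CPM, or 8.28 and 10.6 CPM/kb. Opa1, the GTPase of inner membrane fusion and cristae, was at 52.8 CPM and 16.2 CPM/kb. Dnm1l, the GTPase that constricts mitochondria during fission, was at 55.7 CPM and 25.8 CPM/kb. The Dnm1l model holds almost only coding sequence (2148 of 2151 bases), so its level per length is higher than a model with UTRs would give. Its outer membrane partners Fis1 and Mff were at 33.2 and 29.7 CPM, or 35.0 and 15.7 CPM/kb. All 6 genes were thus between 29.7 and 55.7 CPM. Per length they were less close, from 8.28 CPM/kb for Mfn1 to 35.0 CPM/kb for Fis1. The fission median per length is the Dnm1l value and was not compared with that of fusion.

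The genes that replicate and transcribe mtDNA were the lowest group per length, with a median of 2.34 CPM/kb and none of the 6 above 7.15 CPM/kb on whole models. Tfam, which packages mtDNA and is needed to start its transcription, was at 17.8 CPM and 4.28 CPM/kb. Polrmt, the mitochondrial RNA polymerase, was at 9.36 CPM and 2.49 CPM/kb. Tfb2m, which works with Polrmt at promoters, was at 7.15 CPM/kb, while its paralogue Tfb1m, a methyltransferase of mitochondrial ribosomal RNA, was at 2.19 CPM/kb. Tfb2m shares 946 of its 2399 words with the pseudogene Gm1818, and over unique positions its level would be 12.1 CPM/kb, above that limit. Polg, the catalytic subunit of the mtDNA polymerase, was at 15.9 CPM and 1.96 CPM/kb. Its accessory subunit Polg2 was at 1.4 CPM and 0.932 CPM/kb, so a difference of 11.3-fold in CPM was 2.10-fold per length (by the RefSeq mRNA of each). Polg2 (chromosome 11, 106768253 to 106779515, minus strand) was at percentile 46.1 of all genes and was the lowest of the 39 on both scales.

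Of the 2 nuclear regulators, Gabpa encodes the DNA-binding subunit of the ETS factor GABP and Nrf1 encodes nuclear respiratory factor 1. Both factors are known to bind promoters of mitochondrial genes. Gabpa was at 42.0 CPM and 8.41 CPM/kb and Nrf1 at 8.73 CPM and 2.43 CPM/kb, a ratio of 3.46 per length.

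The chaperones of the matrix were the highest group. Hspa9, the motor that pulls precursors in, was at 316 CPM and Hspd1, which forms the folding chamber, at 241 CPM. Hspe1, the lid of that chamber, was at 75.5 CPM. Per length the 3 genes were nearly level, at 104, 99.4 and 97.6 CPM/kb, and the ratio of highest to lowest fell from 4.19 in CPM to 1.06. Hspd1 and Hspe1 are neighbours on chromosome 1 on opposite strands, and 14.5% of the exon bases of Hspe1 overlap Hspd1. Both have processed copies elsewhere, and 55.7% of Hspd1 words and 64.5% of Hspe1 words were unique. Per kilobase of unique positions, the 3 levels would be 110 for Hspa9, 182 for Hspd1 and 162 for Hspe1, so the near equality depended on counting the shared positions.

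The proteases Lonp1 and Clpp, which degrade damaged proteins of the matrix, were at 40.9 and 12.7 CPM. Per length they were at 13.8 and 12.9 CPM/kb. The prohibitins Phb and Phb2, which form ring scaffolds in the inner membrane, were at 67.5 and 40.1 CPM, or 37.5 and 30.4 CPM/kb, a ratio of 1.23. Phb shares 718 of its 1749 words with the transcribed pseudogene Gm7666. Over unique positions the Phb to Phb2 ratio was 2.30.

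**Figure D3:**
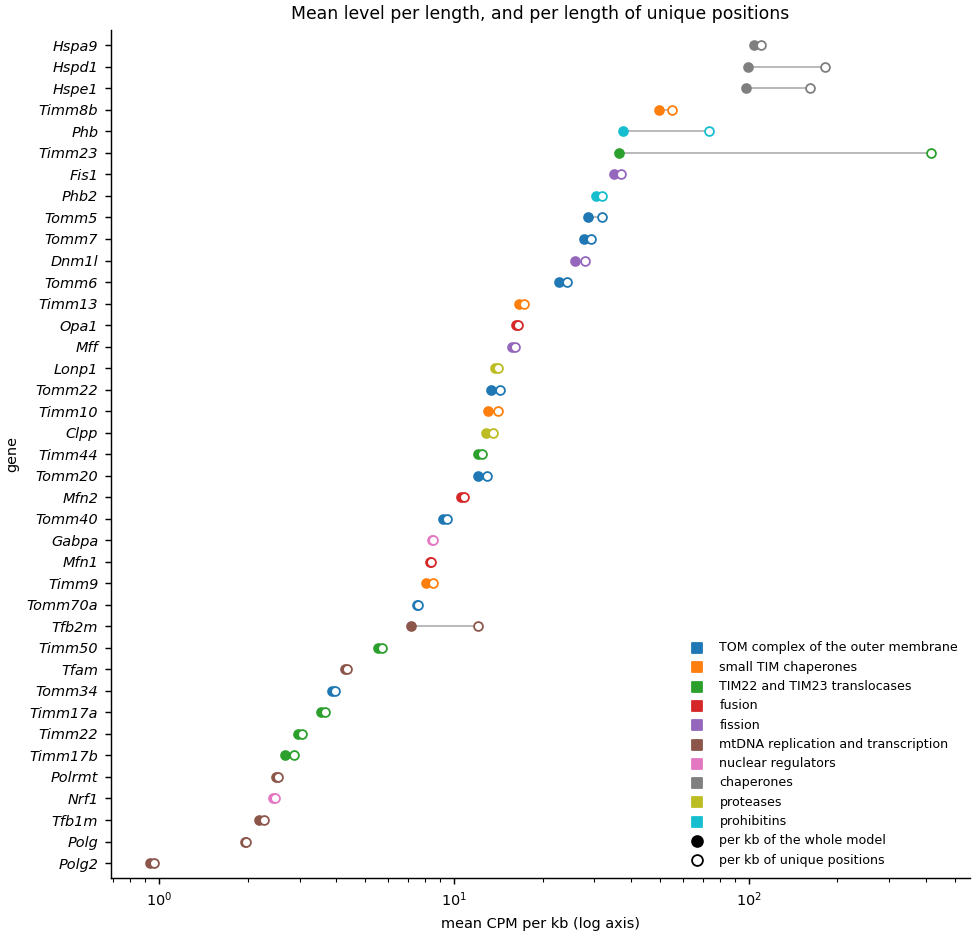
Mean CPM per kilobase of each of the 39 genes on a log axis, ordered by level and coloured by role, with filled points for the whole transcript model and open points for the positions whose 51-base word is in no other gene. By the filled points, the matrix chaperones lie at 97.6 to 104 and the mtDNA genes at or under 7.15. By the open points, the chaperones lie at 110 to 182 and Tfb2m at 12.1, and the gap between the points is widest for Timm23 (36.4 and 414).

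In all, 22 of the 39 genes had no word in common with a gene elsewhere and 17 had some. In 5 genes fewer than 90% of the words were unique, namely Timm23, Phb, Hspd1, Tfb2m and Hspe1. The median over the 39 genes was 12.1 CPM/kb on whole models and 13.0 CPM/kb on unique positions, an alternative chosen after seeing the data.

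The 39 genes had 99 transcripts in the table, 15 genes having 1 and 24 having several. In 18 of these 24 genes the highest pair of transcripts lay within 0.1 on the log2 CPM scale, and in 11 genes all transcripts did. The 8 transcripts of Dnm1l, which share most exons, spanned 0.03. Whether a read shared by several transcripts was counted for each was not tested, so these levels are not read as isoform levels. The 8 transcripts of Mff spanned 3.68, from 4.89 down to 1.21, and those of Tomm70a spanned 2.44. In Polrmt the span was 1.48, in Phb2 1.15, and the 13 transcripts of Nrf1 spanned 0.91.

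**Figure D4:**
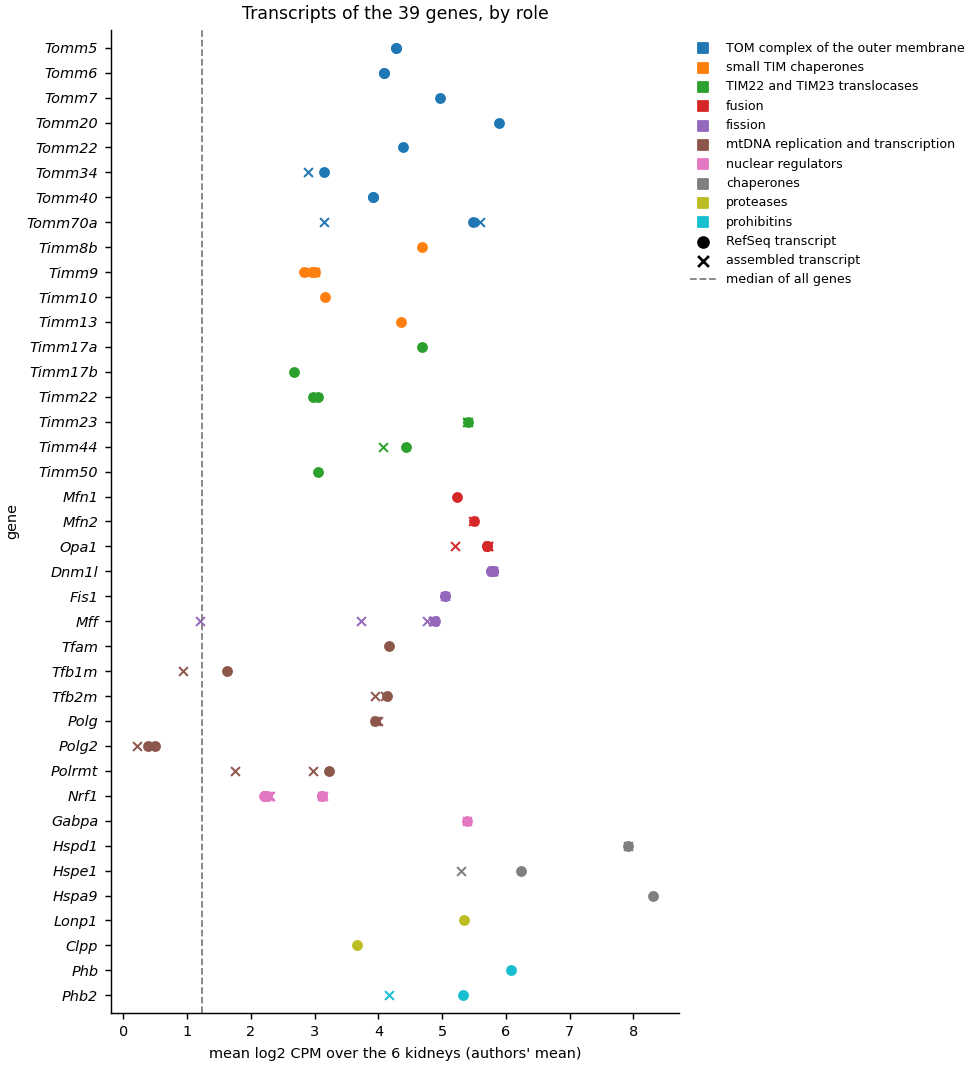
Mean log2 CPM over the 6 kidneys for each of the 99 transcripts of the 39 genes, with circles for RefSeq and crosses for assembled transcripts, coloured by role. The dashed line is the median of all genes at 1.24, and the chaperones Hspa9 and Hspd1 stand to the right of all others.

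Promoters were read from RefSeq (GRCm38.p6) as windows of 300 bases, 250 before the annotated start and 50 from it on. A window was found for 37 of the 39 genes, not for Tomm7 and Hspa9, and 8 genes had several. The core CGCATGCG, bound by NRF1, and the core CCGGAAGT, bound by ETS factors such as GABP, were searched on both strands. The NRF1 core was in 4 of the 37 genes (10.8%), compared with 2.07% of all 27025 genes with a window. The ETS core was in 8 genes (21.6%), compared with 4.31%. One or the other was in 12 genes (32.4%, beside 6.14%), no gene had both, and 25 had neither. Promoters of transcribed genes carry these cores more often. Among genes with at least 10 CPM the shares were 4.78% for the NRF1 core, 9.56% for the ETS core and 13.7% for either. The windows of the 39 genes also had a higher GC content, with a median of 59.3% compared with 52.7%, and the part of GC content in the counts was not tested.

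The NRF1 cores are shown first, each with 10 bases on either side in the direction of the gene and the core in capitals.
Timm13, chr10:80901145-80901172, minus strand: ttatattgtaCGCATGCGcagcggggag
Opa1, chr16:29579266-29579293, plus strand: tggctccccgCGCATGCGcatgtcatcc
Tfb2m, chr1:179546247-179546274, minus strand: ctaggtcgttCGCATGCGccattcgtaa
Gabpa, chr16:84835106-84835133, plus strand: ctgcactgtaCGCATGCGtattctggcc
The genes that carry them are a small TIM, a fusion GTPase, an mtDNA transcription factor and the other regulator. With the start counted as 0, the cores begin at -193, -58, 12 and -8. Nrf1 itself has neither core in its windows.

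The ETS cores fell in genes of import, fusion, fission, mtDNA maintenance and the prohibitins. Of the 11 matches, 1 is shown for each gene, and ACTTCCGG is the same core on the other strand.
Tomm70a, chr16:57121624-57121651, plus strand: ccttctgaccCCGGAAGTggttctcccc
Timm10, chr2:84827027-84827054, plus strand: agacttccttCCGGAAGTgacccacgtg
Timm23, chr14:32201922-32201949, minus strand: cgcgcttcccACTTCCGGgccgcacaca
Mfn1, chr3:32529428-32529455, plus strand: atccgaagcgCCGGAAGTagccgcccct
Fis1, chr5:136953247-136953274, plus strand: gaggcaccacCCGGAAGTtcaggcttcc
Tfam, chr10:71238074-71238101, minus strand: ctgccgcggaCCGGAAGTccgggcttcc
Polg, chr7:79466294-79466321, minus strand: aggacctcacCCGGAAGTccctctgcac
Phb2, chr6:124712205-124712232, plus strand: aagaggcgggACTTCCGGatgcgccatt
Phb2 was the gene with the most cores, at -233, -74 and 2 from its start. In Timm23, Mfn1, Tfam and Polg the core began 38 to 48 bases before the start.

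**Figure D5:**
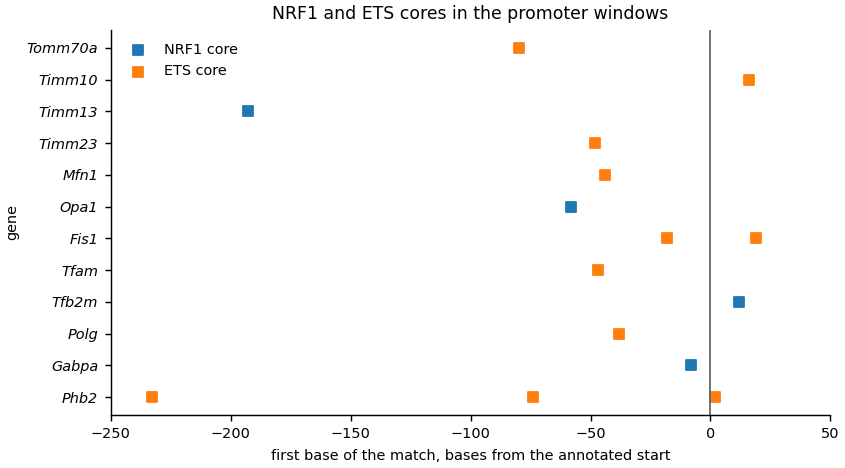
Position of each NRF1 core (blue) and ETS core (orange) in the promoter windows of the 12 genes that carry one. The x axis is the distance of the first base of the match from the annotated start in bases, with the start at 0. Tfam, Timm23, Mfn1 and Polg have their ETS core between -48 and -38, and Phb2 has 3.

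Genes with and without a core had overlapping levels. The 12 genes with one lay between 9.01 and 52.8 CPM with a median of 35.5 CPM, and the 25 without lay between 1.4 and 241 CPM with a median of 19.4 CPM. Per length the medians were 10.8 and 12.1 CPM/kb. Shorter cores were more frequent. The 7 letters GCATGCG were in 7 genes (18.9%, beside 4.01% of all genes and 7.67% of genes with at least 10 CPM). The 7 letters CCGGAAG were in 18 genes (48.6%, beside 9.93% of all genes and 20.4% of genes with at least 10 CPM). Hspd1 and Hspe1 share these matches, since their windows overlap. Other motifs gave smaller differences from all genes. The E-box CACGTG was in 6 genes (16.2%, beside 8.09% of all genes and 12.6% of genes with at least 10 CPM), namely Tomm20, Timm9, Timm10, Hspd1, Lonp1 and Phb. The YY1 core AAGATGGC was in Timm50 and Gabpa (5.41%), beside 3.19% of all genes and 5.66% of genes with at least 10 CPM, so its share was below that of the latter. The ERR site CAAGGTCA was in Timm8b alone (2.70%, beside 1.76% of all genes and 1.23% of genes with at least 10 CPM). No match says only that these letters are not in the window.

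Other genes of the same processes had a lower median than the 39. Of 38 further symbols, which include 3 pairs of older and newer names, 32 were listed, with a median of 12.7 CPM, a median percentile of 72.2 and 31 at 1 CPM or more. Per length their median was 6.68 CPM/kb, and the highest was Pmpcb, a subunit of the protease that removes presequences, at 32.7 CPM/kb. Ppargc1a, the coactivator of mitochondrial biogenesis, had the highest CPM at 75.1. Gdap1, a fission factor known from nerve, was the lowest at 0.0526 CPM. None of the 13 protein-coding genes of mtDNA was listed under its mt- symbol, and other names were not searched. The output of the mtDNA genes was therefore not analysed here.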

How the data were processed

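Whole-kidney total RNA of 3 SKO and 3 DKO mice was sequenced as 51-base single-end reads from a stranded kit. The authors trimmed reads, mapped them to mm10 and kept those with a mapping quality of at least 10. The submitters' processing notes name bcl2fastq 1.8.4, TopHat2 2.0.12, Cufflinks, featureCounts, Subread 1.4.6 and edgeR 3.2.4. The strand setting of the counting is not given in the sources used here. The authors' deposited table lists 54721 transcripts with a mean log2 CPM over all samples, the column used here. Its 4 other columns hold the authors' comparison of DKO with SKO (log2 fold change, likelihood ratio, p-value and adjusted p-value) and were not used, being the study's own findings. The quasi-likelihood test planned for counts could not be run, since no single-sample values were held. Values were computed in Python 3.11.15 with numpy 2.4.6 and pandas 2.3.3. Transcript models were from GENCODE M21 (GRCm38, the build of mm10), and promoters and miRNAs from RefSeq. The choice of the highest transcript, the percentiles and the motif search were tested on simulated data. The other steps were not. All 39 genes were named by rule, and other lists by counts and extremes. Members and lists were chosen with earlier results of these data known.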

Additional observations from a re-analysis of the deposited data

How the results depend on the processing

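The median log2 CPM of the 39 genes was 4.44 with the highest transcript and also with the highest RefSeq mRNA. It was 5.27 with the sum over transcripts, 4.39 with the median over transcripts and 4.51 as log2(CPM + 1). In sums over transcripts, here and below, a read shared by several transcripts could be counted more than once, which was not tested. The median percentile, 81.7 over all genes, was 67.2 among genes with at least 1 CPM, 80.3 with RefSeq mRNAs, 79.7 with sums and 88.5 per kilobase. With 8mers in place of 7-base matches, 1 gene and not 6 carried a miR-17 match. With 7-base cores, the NRF1 count rose from 4 to 7 and the ETS count from 8 to 18. These cores are contained in the longer ones. The median per kilobase moved from 12.1 to 13.0 on unique positions, an alternative chosen after seeing the data. Leaving out single kidneys was not run, and no depth limit was set, because the table holds no single-sample value or count. No paired analysis was possible because the result comes from no test. The protein features planned were not run. The 51-base words were compared exactly, so trimmed reads or reads with mismatches can be less unique than stated.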
